A study of Mus musculus with 8 samples.

Results

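The Bcl11b region is the stretch of mouse chromosome 12 that holds the Bcl11b gene and the sequence on its 3′ side out to a distal thymic enhancer. Its members are set by position, as the counted intervals of 201 bp whose midpoint lies between 107 and 108.05 Mb (mm10). The region was chosen with earlier results of these data known. They number 142 of the 93708 intervals deposited. The study mapped where the Bcl11b protein sits on DNA in mouse thymocytes, the developing T cells of the thymus, by sequencing the chromatin that a rabbit anti-Bcl11b antibody pulls down (ChIP-seq). The groups were Bcl11b+/N440K thymocytes (3 ChIP libraries), in which 1 allele encodes a protein with an amino acid exchange and the other allele is wild type, and Bcl11b+/+ (wild type) thymocytes (3 ChIP libraries). The labels do not say whether the antibody recognises both proteins of the N440K cells. The 2 input libraries, both Bcl11b+/+, were not analysed here, and the background level under the signal is unknown. The labels give neither the age of the mice nor whether replicates came from separate animals, and the p-values reflect just the spread among these libraries, possibly a technical one.

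Bcl11b encodes a zinc finger transcription factor. It commits progenitors to the T cell lineage and keeps them there. The gene lies at one end of a long gene desert, and an enhancer far downstream in that desert contributes to its activation in T cell precursors. Bcl11b protein bound at these sites is therefore bound at the locus that encodes it. Signal is given as CPM, the reads in an interval scaled by the reads its library has in all tested intervals and by a factor that balances the libraries.

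The gene spans 107.91 to 108.00 Mb and is read from high to low coordinates, so the desert and the enhancer lie downstream of it. RefSeq (GRCm38.p6, which shares mm10 coordinates) places a start site at 108003414, and distances below are counted from it. The sequence around that start site is shown because 7 counted intervals lie within 5 kb of it and 1 of them covers part of it. It runs from 250 bases before the start site to 50 bases from it on, read 5′ to 3′ on the minus strand, and capitals mark the 58 bases inside the counted interval at 108003607 to 108003807.
Bcl11b promoter at chr12:108003365-108003664 (GRCm38.p6): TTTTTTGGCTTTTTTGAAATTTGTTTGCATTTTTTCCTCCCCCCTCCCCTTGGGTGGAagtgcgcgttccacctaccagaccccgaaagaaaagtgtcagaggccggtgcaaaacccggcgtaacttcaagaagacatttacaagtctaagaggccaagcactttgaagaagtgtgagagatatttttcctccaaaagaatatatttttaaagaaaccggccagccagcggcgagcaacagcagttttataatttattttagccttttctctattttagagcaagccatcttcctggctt
The window had a GC content of 43%, against a median of 52.7% over the 32851 promoter windows of the same length in the table. Searched on both strands, the letters TGACCA (bound by the paralog BCL11A in human cells), TGTGGT (RUNX factors) and, for GATA factors, AGATAA had 0 matches in it, and they are found in 13.6%, 16.8% and 11.2% of all windows. The letters CTTTGA, a match for TCF and LEF factors, occurred 1 time, as in 16.0% of all windows. GGAAGT, a match for ETS factors, occurred 1 time across the end of the capitals (23.8% of windows). These are matches of letters in 1 window and show nothing of what binds there.

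Bcl11b ChIP signal was lower in N440K thymocytes in the gene, in the desert and at the enhancer. Summed over all 142 intervals it was 1488, 1594 and 1621 CPM in the N440K libraries, against 2369, 2166 and 2381 CPM in the wild type libraries. Every N440K library lay below every wild type library. The N440K mean was 68.0% of the wild type mean (1568 ± 70.4 CPM in N440K, 2306 ± 121 CPM in wild type, SD, n = 3 each). As a share of all counts the region took 0.1418 ± 0.0064% in N440K and 0.2089 ± 0.0097% in wild type libraries (SD, n = 3 each). Scaling sets the typical interval to no change, so these values are relative to the rest of the genome, and binding in fewer cells cannot be told apart from less binding per cell.

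**Figure D1:**
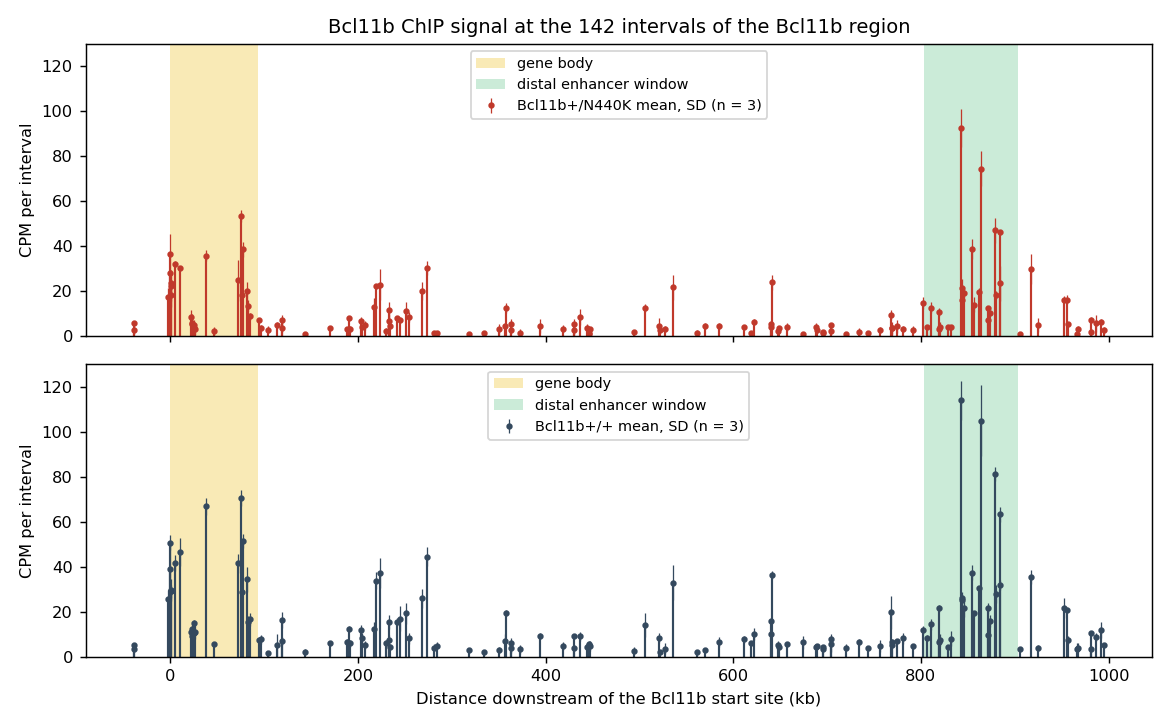
Mean CPM (vertical axis) of the 142 intervals in Bcl11b+/N440K thymocytes (upper panel) and Bcl11b+/+ thymocytes (lower panel) against the distance downstream of the start site in kb; points are means and bars the SD of 3 libraries. Both panels show 1 shared set of intervals, so equal positions are given in advance. The highest interval reaches 92.65 CPM in N440K and 114.1 CPM in wild type.

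A filter on low counts left 92 of the 142 intervals for testing, and edgeR's quasi-likelihood test, adjusted over all 63098 tested intervals (Benjamini-Hochberg, threshold 0.05), called 14 of them, all lower in N440K. Over all tested intervals 1.14% were called, 0.681% lower and 0.460% higher. At an unadjusted p under 0.05, 52 members were lower and 0 higher, where 6.52% and 6.16% of all tested intervals were. DESeq2 called 2 of the members (0.0618% lower over all) and limma voom 7 (0.231% over all), again all lower. Of the 92 tested members, 29 passed the filter through the wild type libraries alone, among them 5 of the 14 called, and for these a low N440K count was part of the choice. Without any filter 13 of the 142 were called, all lower. Without N440K replicates 1, 2 and 3 the calls numbered 5, 7 and 9, and without wild type replicates 1, 2 and 3 they numbered 8, 13 and 6.

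The log2 fold change was negative at 86 of the 92 tested members, where 49.5% of all tested intervals had a negative value. Their median was -0.61, a level of 65.4% of wild type, and the median over all tested intervals was 0.00. Over the 57 members that reached the filter's minimum (about 4.853 CPM in each of 3 libraries) in the N440K libraries alone, the median was -0.47. Set against the wild type mean, the median over the 92 members was -0.66, -0.59 and -0.51 (log2) in N440K replicates 1, 2 and 3. The same median for a wild type library set against the other 2 was 0.05, -0.13 and 0.09. The 50 members left untested held 9.49% of the region's wild type signal. Their summed signal was 61.7% of wild type, at 135 CPM in N440K and 219 CPM in wild type thymocytes, and 42 of them had the lower mean in N440K. The N440K mean was the lower one at 128 of all 142 members, against 53.4% of all deposited intervals. At 72 members every N440K library lay below every wild type library, which was so at 10.6% of all deposited intervals, and 54 of these were tested members (8.95% of all tested intervals). The opposite held at 1 member, against 7.95% of all deposited intervals. That member, at 107433486 in the desert, was too weak to test, with 3.88, 6.10 and 4.16 CPM in N440K and 3.72, 2.88 and 3.00 CPM in wild type libraries.

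The gene body held 28.9% of the region's wild type signal in 22 intervals, the enhancer window from 107.1 to 107.2 Mb held 30.4% in 22 intervals, and the desert between them held 33.0% in 82 intervals that were mostly weak. Intervals lay at 23.5 per 100 kb in the gene body, 22.0 in the enhancer window and 11.5 in the desert. Ranked by wild type signal, 6 of the 142 members were among the strongest 1% of all deposited intervals, 4 in the enhancer window and 2 in the gene body.

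**Figure D2:**
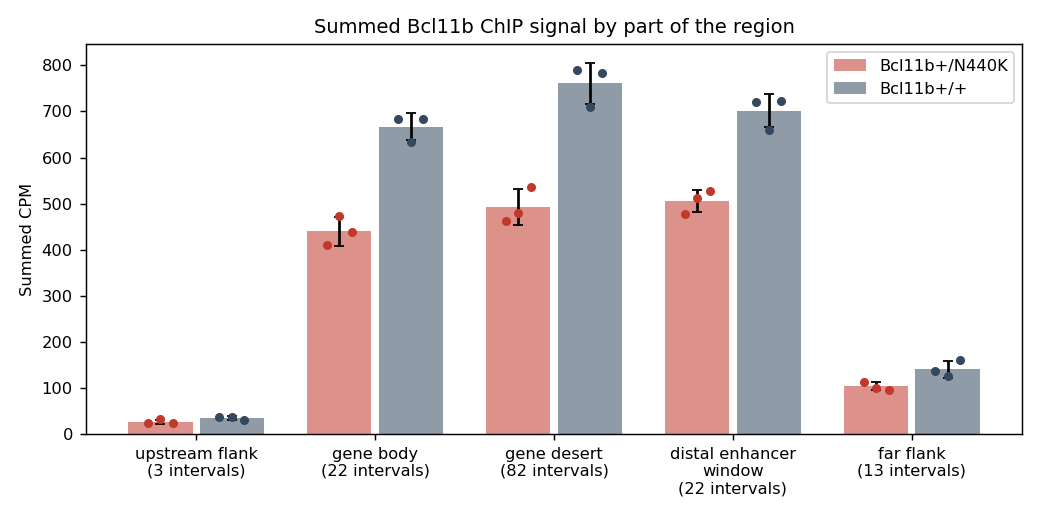
Summed CPM (vertical axis, from 0) over all intervals of each part of the region; bars are means of 3 libraries with the SD, points are the libraries, and Bcl11b+/N440K stands left of Bcl11b+/+. In the gene body, the desert and the enhancer window the N440K points lie below the wild type points, with N440K means of 439.7, 492.8 and 505.5 CPM against wild type means of 667.0, 761.5 and 701.5 CPM.

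In the gene body, summed signal was 409.2, 472.2 and 437.7 CPM in the N440K libraries, against 684.0, 633.6 and 683.3 CPM in the wild type libraries. The N440K mean was 65.9% of wild type. All 21 tested intervals had a negative log2 fold change, between -1.69 and -0.26 with a median of -0.63, and 7 were called lower. The table of genes used here gives only the limits of the gene, so exons and introns were not told apart. Leaving out N440K replicates 1, 2 and 3 gave 3, 3 and 2 calls in the gene body, and leaving out wild type replicates 1, 2 and 3 gave 4, 5 and 4.

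The interval at 107964782 to 107964982, 38.5 kb downstream of the start site, stands alone in the middle of the gene, with its nearest neighbours 46.6 and 26.1 kb downstream. It had 33.2, 36.6 and 38.0 CPM in the N440K libraries, against 63.8, 65.9 and 70.8 CPM in the wild type libraries. The groups lay far apart, and N440K was at 53.8% of wild type, with -0.90 ± 0.14 on the log2 scale (SE; edgeR adjusted p = 6.25e-05). The call was kept under every alternative tried, with edgeR adjusted p of at most 0.00268 when any 1 library was left out and DESeq2 adjusted p = 0.00502.

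The 3 most negative log2 fold changes of the region lay closer to the start site, at neighbouring weak intervals between 107977168 and 107978311, 25.2 to 26.1 kb downstream. Together they had 13.3, 7.93 and 14.1 CPM in the N440K libraries, against 37.2, 36.6 and 36.5 CPM in the wild type libraries, and N440K was at 32.0% of wild type. They were grouped after their values were seen, and all 3 passed the filter through the wild type libraries alone, where they are high. Singly their log2 fold changes were -1.69 ± 0.40, -1.58 ± 0.32 and -1.58 ± 0.38 (SE; edgeR adjusted p = 0.0170, 0.00340 and 0.0180). The wild type libraries had 7.41 to 16.1 CPM at these intervals and the N440K libraries 1.22 to 7.81 CPM, so each value rests on few reads. None was called by DESeq2, and limma voom called the middle one, at 107977643. The middle call was lost without N440K replicate 1 (edgeR adjusted p = 0.0527). The one at 107977168 was lost without N440K replicates 2 and 3 (0.0999 and 0.0906) and without wild type replicates 1 and 3 (0.0741 and 0.0945). The one at 107978111 was lost without each N440K replicate (0.0607 to 0.0639) and without wild type replicate 2 (0.190).

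Toward the 3′ end of the gene, 7 intervals from 107918873 to 107930921 formed a group put together after their values were seen. They summed to 175, 188 and 171 CPM in the N440K libraries, against 261, 260 and 255 CPM in the wild type libraries, with N440K at 68.7% of wild type. The strongest of them, at 107928154, had 54.8, 50.6 and 55.2 CPM in N440K and 71.9, 73.3 and 66.5 CPM in wild type libraries. These values do not overlap, and the change of -0.39 ± 0.13 (log2, SE) did not pass the test (edgeR adjusted p = 0.112). The next strongest, at 107926267, had 38.8, 42.1 and 35.4 CPM in N440K and 55.1, 49.0 and 50.2 CPM in wild type libraries, and did not pass either (edgeR adjusted p = 0.179). Its neighbours at 107921196 and 107930721 were called, with log2 fold changes of -0.74 ± 0.19 and -0.77 ± 0.18 (SE; edgeR adjusted p = 0.0345 and 0.0173). At 107930721 N440K replicate 2 stood apart with 35.4 CPM, beside 21.0 and 18.2 CPM in replicates 1 and 3 and 38.4 to 46.1 CPM in wild type. That call was lost without N440K replicate 1 or 3 (0.148 and 0.196) and without wild type replicate 2 (0.105). The call at 107921196 was lost without N440K replicates 2 and 3 (0.124 and 0.172) and without wild type replicates 1 and 3 (0.151 and 0.120).

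Around the start site the change was smaller in value and no interval was called. The 7 intervals within 5 kb summed to 157.8, 199.5 and 180.1 CPM in N440K and 260.2, 225.6 and 249.4 CPM in wild type libraries, with N440K at 73.1%. Their log2 fold changes lay between -0.64 and -0.32, with edgeR adjusted p of 0.112 or more. An unadjusted p under 0.05 was reached at 5 of the 7, all lower, where 6.52% of all tested intervals were lower at that level. DESeq2 and limma voom also called 0. At 4 of the 7 every N440K library lay below every wild type library, against 8.95% of all tested intervals. Among these 4 was the strongest of the group by wild type signal, at 108004003. It had 27.1, 37.8 and 44.8 CPM in N440K and 53.9, 51.05 and 47.2 CPM in wild type libraries (edgeR adjusted p = 0.137). The interval that covers part of the printed promoter had 27.7, 29.3 and 28.1 CPM in N440K and 39.6, 28.0 and 49.4 CPM in wild type libraries. Wild type replicate 2 lay within the N440K range there, and the change of -0.46 ± 0.18 (log2, SE) did not pass (edgeR adjusted p = 0.234). The interval nearest to the start site, at 108003083, had 21.0, 29.3 and 16.7 CPM in N440K and 30.4, 27.2 and 29.6 CPM in wild type libraries, which overlap (edgeR adjusted p = 0.401). A called interval lay further in, at 107993125, 10.2 kb downstream, with 31.6, 29.9 and 30.2 CPM in N440K and 50.8, 39.5 and 49.8 CPM in wild type libraries (edgeR adjusted p = 0.0403). Its call was lost without any 1 of the 6 libraries other than wild type replicate 2 (edgeR adjusted p of 0.0969 to 0.159). A difference between the start site and the rest of the gene was not tested.

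**Figure D3:**
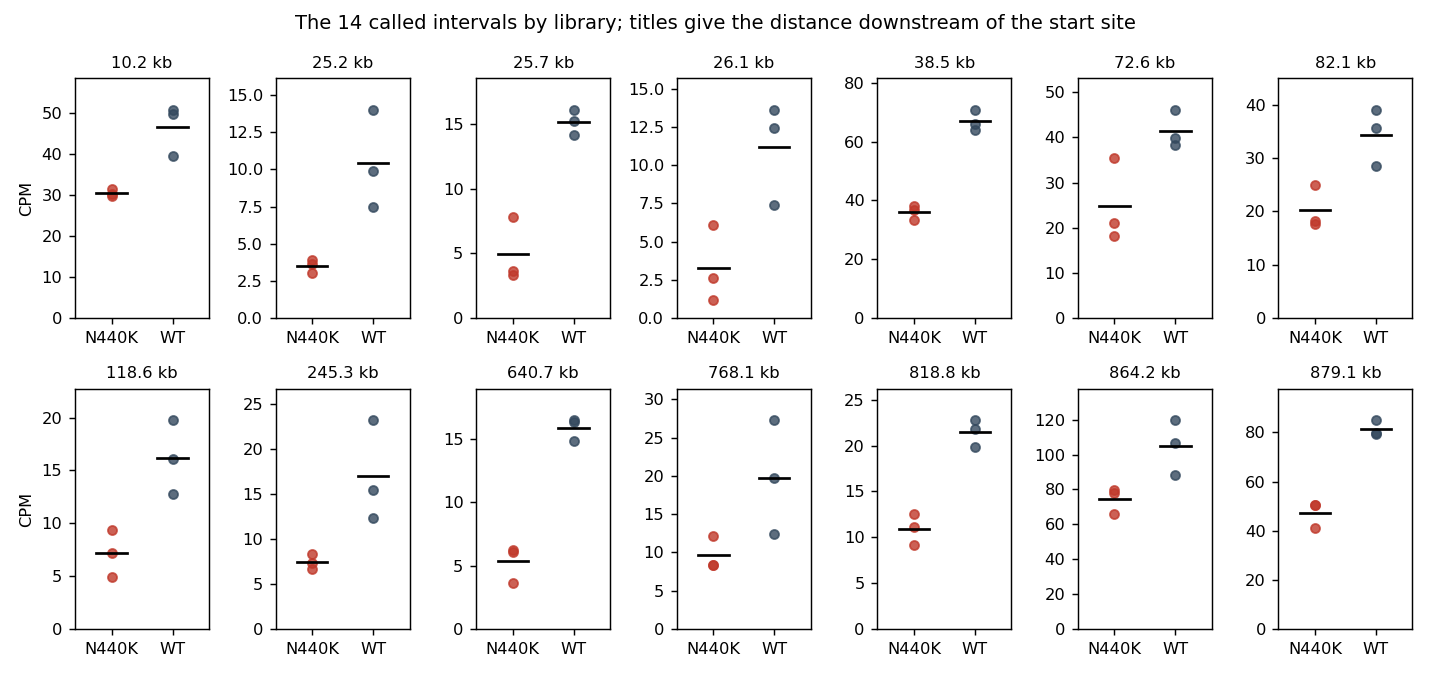
CPM (vertical axes, from 0, scaled per panel) of the 14 called intervals in each Bcl11b+/N440K library (red, left) and Bcl11b+/+ library (grey, right), ordered by distance downstream of the start site; lines are means. In all 14 panels the 3 N440K points lie below the 3 wild type points, and N440K means range from 29.6% to 71.2% of wild type.

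The enhancer window held the strongest single intervals of the region. Its 22 intervals summed to 478.4, 511.3 and 526.8 CPM in the N440K libraries, against 720.6, 660.3 and 723.7 CPM in the wild type libraries, with N440K at 72.1% of wild type. Of the 20 tested, 19 had a negative log2 fold change, with a median of -0.55, and 3 were called lower. Without N440K replicates 1, 2 and 3 the window had 1, 2 and 3 calls, and without wild type replicates 1, 2 and 3 it had 2, 2 and 1.

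The strongest interval of the whole region, at 107160188 to 107160388 and 843.1 kb downstream, ranked 30 of all 93708 intervals by wild type signal. It had 87.5, 102.5 and 88.0 CPM in the N440K libraries, against 114.0, 105.4 and 122.8 CPM in the wild type libraries. N440K was at 81.2% of wild type without overlap, and the change did not pass (log2 fold change -0.30, 95% interval -0.52 to -0.09; edgeR adjusted p = 0.162). The next strongest, at 107139087 to 107139287 and ranked 41, had 65.9, 79.9 and 78.1 CPM in N440K and 119.6, 88.1 and 106.9 CPM in wild type libraries. It was called, at -0.48 ± 0.12 on the log2 scale (SE; edgeR adjusted p = 0.0213), and the call was lost without N440K replicate 1 (0.182) and without wild type replicates 1 and 3 (0.127 and 0.0604).

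Toward the outer side of the window a call did not hinge on any library. The interval at 107124217 to 107124417, 879.1 kb downstream and ranked 164, had 50.4, 40.9 and 50.5 CPM in N440K and 84.9, 79.5 and 79.8 CPM in wild type libraries. Its log2 fold change was -0.77, with a 95% interval of -1.03 to -0.52 (edgeR adjusted p = 0.000171). Like the interval in the middle of the gene it kept its call under every alternative, and these were the 2 members that did. Its neighbour at 107119200, 884.1 kb downstream, had 47.6, 45.8 and 45.3 CPM in N440K and 66.3, 59.7 and 64.0 CPM in wild type libraries, which did not pass (edgeR adjusted p = 0.0799). The third call in the window, at 107184527, was a weaker interval with 11.1, 9.15 and 12.5 CPM in N440K and 19.8, 21.8 and 22.8 CPM in wild type libraries (edgeR adjusted p = 0.0215). It was lost without N440K replicates 1 and 2 (0.0935 and 0.0877) and without wild type replicates 2 and 3 (0.0668 and 0.0850).

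Of the 20 tested intervals of the enhancer window, 1 had a positive log2 fold change, and it was a strong one. At 107148571 to 107148771, 854.7 kb downstream, the N440K libraries had 33.8, 42.7 and 40.1 CPM and the wild type libraries 39.0, 33.8 and 39.5 CPM. These overlap, and the log2 fold change was 0.06 (95% interval -0.26 to 0.37; edgeR adjusted p = 0.927). Its sign turned to -0.00 without N440K replicate 2 and to -0.02 without wild type replicate 2. Over the 92 tested members, the 95% interval of the log2 fold change held the median of the region at 80 members and held 0 at 40. That median was taken from the same 92 values, so the first count is partly set in advance and does not test whether the members share 1 change. The stronger members by mean over all 6 libraries (46) had 8 calls and a median of -0.47, and the weaker 46 had 6 calls and a median of -0.75. The filter bears most on the weaker ones.

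Between the gene and the enhancer window, the desert held 82 intervals over 710.4 kb, summing to 462.9, 479.0 and 536.6 CPM in N440K and 790.6, 710.2 and 783.8 CPM in wild type libraries. N440K was at 64.7% of wild type. Of the 42 tested intervals 4 were called lower, and 38 had a negative log2 fold change, with a median of -0.65 over the 42. A positive value was found at 4, up to 0.29 at 107200992, just past the enhancer window (edgeR adjusted p = 0.697). The strongest interval here, at 107729329 in the noncoding RNA gene 4930465M20Rik and 274.0 kb downstream, had 33.2, 26.9 and 31.2 CPM in N440K and 44.0, 40.8 and 48.9 CPM in wild type libraries. It did not overlap between genotypes and did not pass (edgeR adjusted p = 0.0752).

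The most negative log2 fold change in the desert lay 640.7 kb downstream, at 107362646 to 107362846, an interval that passed the filter through the wild type libraries alone. It had 6.09, 3.66 and 6.25 CPM in N440K and 14.9, 16.5 and 16.3 CPM in wild type libraries, which is 33.6% of wild type and -1.55 ± 0.30 on the log2 scale (SE; edgeR adjusted p = 0.00214). DESeq2 did not call it (adjusted p = 0.127), and the call held with each library left out in turn (edgeR adjusted p of at most 0.0196). The interval 0.5 kb away, at 107362120, is the stronger of the pair, with 25.5, 26.2 and 20.3 CPM in N440K and 35.3, 38.3 and 35.6 CPM in wild type libraries (edgeR adjusted p = 0.0685). A further neighbour, at 107363060, had 4.98, 1.83 and 6.25 CPM in N440K and 13.01, 8.23 and 9.01 CPM in wild type libraries (edgeR adjusted p = 0.130). Summed, the 3 intervals stood at 54.0% of wild type. The interval at 107779421 had 18.3, 20.1 and 30.7 CPM in N440K and 40.9, 29.6 and 41.6 CPM in wild type libraries, with wild type replicate 2 inside the N440K range, and did not pass (edgeR adjusted p = 0.0576). Among left-out libraries, it passed without N440K replicate 3 (0.0198) and without wild type replicate 2 (0.0233).

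The other 3 calls of the desert were at weak intervals. At 107884708, 118.6 kb downstream and also past the filter through wild type alone, N440K libraries had 7.20, 4.88 and 9.37 CPM and wild type libraries 16.1, 12.8 and 19.7 CPM (edgeR adjusted p = 0.0260). At 107758035, 245.3 kb downstream, N440K libraries had 6.64, 7.32 and 8.33 CPM and wild type libraries 15.5, 12.3 and 23.2 CPM (edgeR adjusted p = 0.0178). At 107235208, 768.1 kb downstream, N440K libraries had 8.31, 12.2 and 8.33 CPM against 27.3, 12.3 and 19.7 CPM in wild type libraries (edgeR adjusted p = 0.0456). At the last of these the nearest values of the genotypes almost touch. All 3 calls were lost without N440K replicate 1 (0.104, 0.106 and 0.186) and without wild type replicate 3 (0.179, 0.241 and 0.120). Further losses came without N440K replicate 2 at the first 2 (0.123 and 0.0531), without N440K replicate 3 at the last (0.180) and without wild type replicate 1 at the first and the last (0.0537 and 0.271).

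At the region's own ends N440K was at 73.2% of wild type on the low-coordinate side and at 76.6% upstream of the gene. The enhancer window, at 72.1%, was close to the first of these. The low-coordinate end, beyond the enhancer window, had 13 intervals that summed to 113.0, 100.1 and 96.29 CPM in N440K and 136.9, 124.7 and 161.0 CPM in wild type libraries, and 0 of 7 tested were called (1 at an unadjusted p under 0.05; DESeq2 and limma voom also called 0). All 7 had a negative log2 fold change, with a median of -0.44, where 49.5% of all tested intervals were negative. The strongest interval of this end, at 107086345 in the noncoding RNA gene Gm16086, had 33.8, 34.2 and 22.4 CPM in N440K and 36.6, 32.1 and 38.2 CPM in wild type libraries, which overlap (edgeR adjusted p = 0.601). The next strongest there, at 107051319, had 16.6, 17.7 and 14.6 CPM in N440K and 17.4, 21.4 and 26.2 CPM in wild type libraries, which also overlap (edgeR adjusted p = 0.395). At 107047287 the libraries did not overlap, with 17.17, 14.03 and 17.70 CPM in N440K and 20.45, 21.41 and 20.60 CPM in wild type, and the interval did not pass (edgeR adjusted p = 0.533). The strongest upstream of the gene, at 108006146, had 17.7, 21.4 and 14.1 CPM in N440K and 27.9, 28.0 and 21.5 CPM in wild type libraries (edgeR adjusted p = 0.223). At 108041653, 38.3 kb upstream, the libraries overlapped, with 5.54, 6.10 and 6.25 CPM in N440K and 4.34, 5.35 and 6.01 CPM in wild type (edgeR adjusted p = 0.912).

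**Figure D4:**
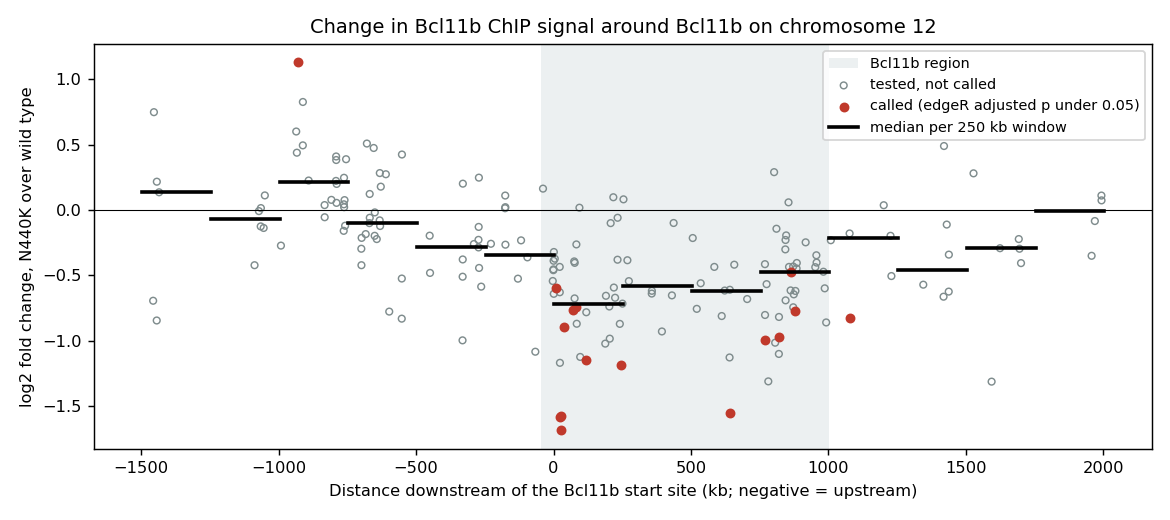
Log2 fold change of N440K over wild type (vertical axis) of each tested interval of chromosome 12 between 106 and 109.5 Mb against the distance downstream of the Bcl11b start site in kb; red points are called, shading marks the Bcl11b region and black lines are medians of 250 kb windows, many with under 20 intervals. The medians lie between -0.72 and -0.48 in the 4 windows from 107 to 108 Mb and reach 0.21 in the window from 108.75 to 109 Mb.

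Farther out on both sides of the region, N440K came nearer to wild type or rose above it. Summed over all intervals, N440K was at 71.9%, 60.6%, 68.5% and 63.9% of wild type in the 250 kb windows from 107 to 108 Mb. Below 107 Mb it was at 75.5%, 77.6%, 80.3% and 94.8% of wild type with growing distance, and each of these windows had only 4 to 6 tested intervals. Above 108 Mb it was at 80.8%, 79.1%, 91.8% and 119% of wild type in successive windows of 13 to 22 tested intervals. The window at 80.8% also holds members of the region, among them intervals around the start site. Its value is therefore in part the region's own and does not describe the sequence outside it alone. In the gene bodies of Setd3, a histidine methyltransferase gene, and Ccdc85c, the median log2 fold change was -0.23 over 5 and -0.26 over 7 tested intervals. In Evl, an actin regulator gene further out, it was -0.07 over 18, and in the transcription factor gene Yy1 it was 0.30 over 4. Among the protein-coding genes within 1.5 Mb other than Bcl11b, 1 interval in Wdr25 was called, and it was higher in N440K. Outside these genes, 1 interval 1077.2 kb downstream of the start site, just beyond the region, was called lower, at -0.83 on the log2 scale. Chromosome 12 outside the region had a summed signal of 99.4% of wild type and a median of -0.01 over 2468 tested intervals, of which 43 were called lower (1.74%) and 23 higher (0.932%).

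Set among windows of 1 Mb with 20 or more tested intervals, the window from 107 to 108 Mb had the third lowest median of 1093, at -0.62. The windows below it began at 115 Mb on chromosome 12 (-0.81, 24 tested intervals) and at 105 Mb on chromosome 14 (-0.74, 32 tested intervals). Of its 85 tested intervals 16.5% were called lower (14), against 33.3% in the window on chromosome 12 (8) and 15.6% in that on chromosome 14 (5). Signal around 2 other T cell commitment genes, taken with 500 kb on either side, was less changed in value. Around Gata3 the sum was at 90.6% of wild type, and 2 of 60 tested intervals were called lower (3.33%, against 0.681% of all tested intervals). The log2 fold change was negative at 45 of these 60, against 49.5% of all tested intervals, with a median of -0.18. Around Tcf7 the sum was at 103% with 0 of 102 called, and 40 were negative with a median of 0.05. An unadjusted p under 0.05 was reached at 9 intervals around Gata3 and 11 around Tcf7, and at 12.7% of all tested intervals. DESeq2 and limma voom called 0 around either gene.

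Among genes that act with or before Bcl11b in T cell commitment, and its paralog, 2 of 122 tested intervals were called, 1.64% against 1.14% of all tested intervals. At an unadjusted p under 0.05 there were 13, which is 10.7% against 12.7% of all tested intervals, and both shares are near the background. The intervals nearest to Notch1, the receptor that starts the T cell program (16 tested), to Tcf7, the gene of TCF-1 (27), to Runx1, a RUNX factor gene (42), and to its partner Cbfb (4) had 0 edgeR calls, with 1, 4, 2 and 0 at an unadjusted p under 0.05. The closest to the threshold was at Tcf7, with 7.75, 9.15 and 9.37 CPM in N440K and 19.2, 15.6 and 16.7 CPM in wild type libraries (edgeR adjusted p = 0.0507). Gata3, a zinc finger factor gene, had 1 of 17 called lower, with 1.11, 1.83 and 1.04 CPM in N440K and 6.82, 5.35 and 8.16 CPM in wild type libraries (edgeR adjusted p = 0.0165). That interval passed the filter through the wild type libraries alone. Rbpj, the gene of the DNA-binding partner of Notch, had 1 of 11 called higher, with 28.2, 21.4 and 22.9 CPM in N440K and 15.5, 12.4 and 14.2 CPM in wild type libraries (edgeR adjusted p = 0.0478). The paralog Bcl11a had 0 of 5 called, with 2 at an unadjusted p under 0.05 and a median log2 fold change of -0.46. DESeq2 and limma voom called 0 intervals at any of the 7 genes.

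Compared by the median log2 CPM of its tested intervals in each of the 6 libraries, and among genes taken with their nearest intervals, the region was most like Tspan9, St3gal6, Dym, Strbp and Macrod1 of 1471 genes with 10 or more tested intervals. Pearson's r was 0.97, 0.97, 0.97, 0.97 and 0.96 over the 6 libraries, and 8 genes were above 0.95. The libraries are shared by all genes and the choice favours any gene that is lower in N440K. The median log2 fold changes of these 5 genes were -0.41, -0.78, -0.12, -0.13 and -0.37, and 1 of their intervals was called lower, near Macrod1.

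Counts over all deposited intervals ranged from 1812952 to 2123877 in the N440K and from 1787899 to 2661343 in the wild type libraries, so N440K libraries were not uniformly shallower. Bound intervals lay within 5 kb of all 10 T cell marker genes examined, of 3 of 4 for B cells, 1 of 3 for myeloid cells and 2 of 3 for thymic epithelium, and binding does not show expression. Summed signal at the T cell markers was 1800 to 1870 CPM in N440K and 1820 to 1930 CPM in wild type libraries. At the myeloid marker Itgam it was 121 to 141 CPM in N440K and 140 to 206 CPM in wild type libraries. The B cell markers had 94.7 to 113 CPM in N440K and 94.8 to 102 CPM in wild type libraries, and the thymic epithelial ones 33.8 to 43.7 CPM in N440K and 30.4 to 44.2 CPM in wild type libraries. These ranges of N440K and wild type libraries overlap, and the part of other cell types in the region's values was not tested.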

How the data were processed

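ChIP-seq reads were counted in peak intervals for 6 ChIP libraries. The authors deposited raw counts for 93708 intervals of 201 bp, and deposited CPM values for 63098 of them; each CPM value is the count divided by 1 constant per library, and 100% came back as whole reads (tolerance 0.01). Per the submitters' processing notes, the tools were MACS2, bedtools, fastp 0.20.0, SAMtools 1.9, edgeR 3.38.2 and Bowtie2 2.3.5, on mm10. The roles are not stated there, nor is the set of libraries on which peaks were called, which bears on which intervals exist.

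Counts of 3 N440K and 3 wild type libraries were filtered by group with filterByExpr, which removed 30610 intervals. After TMM scaling, edgeR's quasi-likelihood test (two-sided, genotype only) was run, with Benjamini-Hochberg adjustment over all tested intervals and a threshold of 0.05. Log2 fold changes are N440K over wild type. CPM was recomputed from these factors (0.9896 to 1.0120) for all intervals. Total counts over tested intervals were 1609762 to 2400250. Library pairs of one genotype differed by a chi-square per degree of freedom of 1.24 to 1.42, so none was a copy.

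The members, parts and gene lists were chosen with earlier results of these data known. Named intervals are all called members, the 3 strongest per part by wild type signal, the one nearest the start site and the strong ones farthest from the median. Any other named interval (such as a neighbour of one of these, the one over the promoter or the strongest within 5 kb of the start site) was added after its values were seen. Intervals were assigned to the nearest protein-coding gene within 100 kb for the commitment genes and the likeness ranking. The result of 1 cell type marker list is not reported here. Per-library medians used log2(CPM + 0.5). Coordinates are counted from 1. Sequences of peaks are not shown, since no genome was used. Alternatives were DESeq2, limma voom, limma on the deposited CPM, other scalings and filters, a threshold of 0.01, a replicate block and each library left out. R 4.3.3 ran edgeR 4.0.16, limma 3.58.1 and DESeq2 1.42.0, and Python 3.11.15 ran pandas 2.3.3, numpy 2.4.6 and matplotlib 3.10.9.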

Additional observations from a re-analysis of the deposited data

How the results depend on the processing

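The region's median log2 fold change (-0.61) was negative in every alternative, from -0.67 to -0.57 with 1 library left out and from -0.63 to -0.55 under other tools, scalings and filters. Over members chosen after seeing the data it was -0.47 (the 57 that reach the minimum in N440K alone) and -0.51 (the 50 at or above the median CPM of all tested intervals). The region's share of counts in N440K was 0.679 of wild type, and 0.661 to 0.696 with 1 library left out. The number of calls depended on the tool, the threshold and the libraries, and the cause was not tested where fewer samples or intervals do not show it. All calls in the region were lower in every setting. Over all intervals edgeR called 720 (430 lower, 290 higher), and limma voom 146 lower and 172 higher. With DESeq2 there were 60 calls over all intervals, 2 in the region, 1 in the gene body and 1 in the enhancer window, and with limma voom 318, 7, 3 and 3. An adjusted p of 0.01 left 207, 4, 2 and 1. Intervals at or above the median CPM, which are fewer, gave 328 over all and 4 in the gene body, and limma on the deposited CPM with a pseudocount of 0.25 gave 426 over all. Leaving out 1 library gave 301 to 588 calls over all, 5 to 13 in the region, 2 to 5 in the gene body and 1 to 3 in the enhancer window. The sign at 107148571 turned without N440K replicate 2 (-0.003) and wild type replicate 2 (-0.016), with values up to 0.156 without the others. Counts recovered from the deposited CPM, an alternative chosen after seeing the data, gave 720 over all and 14 in the region. With replicate number as a block there were 753 calls over all and 17 in the region, among them 107729329 (adjusted p = 0.0445) and 107779421 (0.0309). The last also passed with total counts (0.0471) and, as did 107362120 (0.0484), among intervals at or above the median CPM (0.0460). Libraries with the same number had deviations from their genotype's mean that correlated at -0.004, 0.028 and 0.058. Those with different numbers correlated at -0.047 to 0.017. All these values are small, so they cannot decide whether the numbers mark a pairing. Of the 14 calls 2 held throughout, and the others were lost under 1 to 11 of up to 18 alternatives that held them. Intervals under about 10 CPM rest on few reads, which limits their fold changes.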
